A study of Mus musculus with 2 samples.

Results

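The genes described here are the voltage-gated ion channel genes of the mouse autosomes, taken as all protein-coding genes whose RefSeq symbols on the mm10 build begin with Kcn, with Scn and a digit, or with Cacn. They number 131 of 20558 autosomal protein-coding genes, and the choice used names only, no measured value. H3K9me2, a dimethyl mark on histone H3 that is typical of silent chromatin, was mapped by CUT&Tag, a method in which an antibody brings a transposase to marked chromatin so that the DNA there is cut and tagged. There was 1 library of activated B cells from wild-type C57BL/6 mice (WT) and 1 from activated B cells of C57BL/6 mice labelled as a Jmjd1c B cell knockout (KO), a gene of the jumonji demethylase family. The stimulus, the age and number of the mice, and the means of deletion are not given in the sources used here. Peaks were called from 33474010 WT and 34502392 KO tags, and the autosomes held 29528 and 30144 of them. Because each genotype has 1 library, differences between genotypes cannot be set against replicate spread, and p-values are not given. Intervals are exact 95% intervals for counting error only, and they take peaks as independent although those within 1 gene may not be.

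The label is wider than the function. Besides voltage-gated pores, the symbols take in 15 inward rectifiers and 14 K2P leak channels, which are not opened by voltage in the classical sense. They also take in 8 genes classed here with the calcium- and sodium-activated potassium channels, among which Kcnma1 also senses voltage, and auxiliary subunits that form no pore. Peaks of a silencing mark cannot identify a cell type, so the label could be checked only in part. None of 8 B cell markers, among them Pax5, held a peak in either library. Of 4 T cell markers, Themis alone held peaks, with 22 in WT and 23 in KO, and of 3 myeloid markers Adgre1 held 1 in each. With a peak at 9.45% (WT) and 9.67% (KO) of all coding genes, lists this short say little about the label.

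Voltage-gated channels open when the membrane depolarizes. Sodium channel alpha subunits (Scn genes) carry the rising phase of the action potential, calcium channel alpha1 subunits (Cacna1 genes) turn depolarization into calcium entry, and potassium channels (Kcn genes) repolarize the cell and set its resting potential. Lymphocytes fire no action potentials, but they use Kcna3 (Kv1.3) and Kcnn4 (KCa3.1) to hold the negative membrane potential that drives calcium entry after antigen receptor signalling. Most other members are known from neurons, heart, muscle, kidney or gland.

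The promoters of Kcna3 and Kcnn4 are shown because these are the channels that lymphocytes use, and those of Cacna2d1, Kcnc2, Kcnt2 and Scn9a because the data placed an H3K9me2 peak over each of them in both libraries. Each sequence is the 250 bases upstream of the transcription start, 5′ to 3′ on the gene's strand, from RefSeq on GRCm38.p6, the assembly behind mm10, with CG dinucleotides in capitals. The promoter comparison was added, and these genes were picked for display, after the values were seen, and for Kcnc2, which has 4 promoter entries, the entry nearest to a WT peak is given.
Kcna3, chr3:107035912-107036161, plus strand: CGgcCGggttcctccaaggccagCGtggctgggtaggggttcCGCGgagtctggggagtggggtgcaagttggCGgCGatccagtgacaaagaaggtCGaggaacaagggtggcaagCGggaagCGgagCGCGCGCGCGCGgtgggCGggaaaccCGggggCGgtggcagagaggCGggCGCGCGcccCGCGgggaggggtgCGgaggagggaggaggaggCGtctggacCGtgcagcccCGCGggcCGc
Kcnn4, chr7:24370013-24370262, plus strand: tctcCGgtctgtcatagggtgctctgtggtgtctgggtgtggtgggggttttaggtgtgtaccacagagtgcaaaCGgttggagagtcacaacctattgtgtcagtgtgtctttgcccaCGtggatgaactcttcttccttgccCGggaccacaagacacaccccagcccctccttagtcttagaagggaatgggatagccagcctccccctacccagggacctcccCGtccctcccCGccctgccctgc
Cacna2d1, chr5:15934441-15934690, plus strand: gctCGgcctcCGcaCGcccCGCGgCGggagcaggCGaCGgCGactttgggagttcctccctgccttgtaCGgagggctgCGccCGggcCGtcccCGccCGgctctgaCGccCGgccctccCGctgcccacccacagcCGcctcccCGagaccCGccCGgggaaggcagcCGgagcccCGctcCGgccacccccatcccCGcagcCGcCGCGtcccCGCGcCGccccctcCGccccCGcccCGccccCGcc
Kcnc2, chr10:112270871-112271120, plus strand: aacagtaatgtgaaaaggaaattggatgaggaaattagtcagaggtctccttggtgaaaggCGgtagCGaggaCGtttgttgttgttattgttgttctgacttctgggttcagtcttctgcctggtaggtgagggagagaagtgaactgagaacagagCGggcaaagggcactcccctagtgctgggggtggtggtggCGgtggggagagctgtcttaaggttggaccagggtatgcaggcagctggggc
Kcnt2, chr1:140245468-140245717, plus strand: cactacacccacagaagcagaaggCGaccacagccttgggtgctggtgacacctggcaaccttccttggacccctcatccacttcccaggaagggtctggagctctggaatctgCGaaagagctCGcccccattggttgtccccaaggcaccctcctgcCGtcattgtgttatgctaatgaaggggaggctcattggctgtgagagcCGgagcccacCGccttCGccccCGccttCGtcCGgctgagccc
Scn9a, chr2:66634963-66635212, minus strand: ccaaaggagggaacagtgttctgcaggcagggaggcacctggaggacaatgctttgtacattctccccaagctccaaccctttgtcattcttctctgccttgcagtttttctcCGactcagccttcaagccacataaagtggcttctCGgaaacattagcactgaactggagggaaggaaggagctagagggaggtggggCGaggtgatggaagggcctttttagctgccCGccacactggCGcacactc
The CG count was 31 at Kcna3 and 6 at Kcnn4, against 36 at Cacna2d1, 10 at Kcnt2 and 5 at both Kcnc2 and Scn9a. The promoters under a peak thus ranged from CG-rich to CG-poor. The motif CG, which reads the same on both strands, occurred at least once in 93.7% of the 20085 promoters of autosomal coding genes in the table.

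Over all called peaks, channel genes carried more H3K9me2 peaks per Mb than coding genes as a whole, in both genotypes. A gene's window was its body with 2 kb on both sides. The windows of the 131 genes spanned 17.3 Mb and held 221 WT peaks, 12.7 per Mb (11.1 to 14.5), and 240 KO peaks, 13.8 per Mb (12.1 to 15.7). Over all autosomal coding windows the density was 8.71 per Mb in WT and 8.90 in KO. At least 1 peak lay in 29 members in WT (22.1%, 15.4 to 30.2%) and in 28 in KO (21.4%, 14.7 to 29.4%), where 9.45% of all coding genes had one in WT and 9.67% in KO. In a bulk library, a mark on fewer cells and less of the mark per cell cannot be told apart.

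Gene length went with the higher density over all called peaks. Observed peaks were set against the number that the members would hold at the peaks per Mb of all other coding genes in the same of 6 classes of window length, whose bounds were set after a first look at peak numbers per gene. The members were then near the background, with 221 observed and 216 given by that rate in WT, a ratio of 1.02 (0.892 to 1.17), and with 240 and 220.5 in KO, a ratio of 1.09 (0.955 to 1.24). These intervals take the rate as fixed. In classes of length crossed with the number of coding genes within 500 kb, measured between gene midpoints, the ratios were 1.08 and 1.14. Of the 34 members with a window under 20 kb, 0 had a WT peak and 1 had a KO peak, against 5.08% and 5.21% of the 9704 other genes of that length. Of the 13 members of 400 kb or more, 11 (84.6%, 54.6 to 98.1%) had a WT peak and 10 (76.9%) a KO peak, close to the 82.0% and 80.7% of the 327 other genes. In the class of 200 to 400 kb, 10 of 14 members (71.4%, 41.9 to 91.6%) had a peak in each library, against 46.7% and 47.6% of 614 other genes, whose shares lay inside the members' interval.

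**Figure D1:**
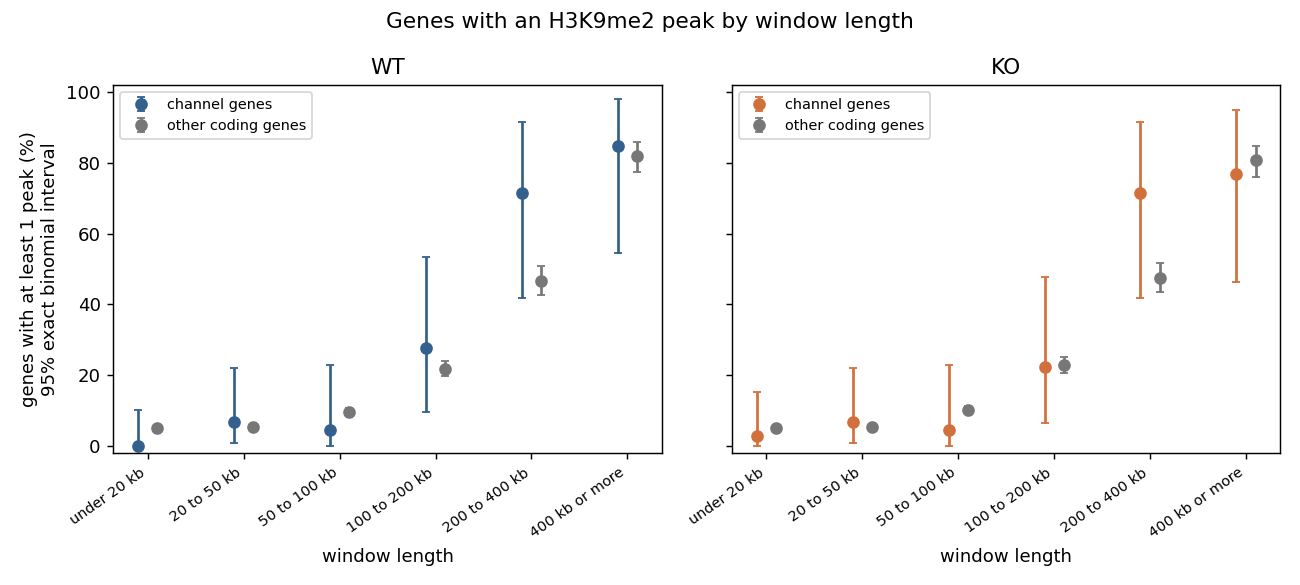
Share of genes with at least 1 H3K9me2 peak (y axis, percent, exact 95% binomial intervals) by class of window length (x axis), for channel genes (coloured) and all other autosomal coding genes (grey), with WT on the left and KO on the right. Both kinds of gene rise from about 5% or less under 20 kb to 76.9% or more at 400 kb and above.

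The number of coding genes around a gene's midpoint also differed between members with and without peaks. The 30 members with a peak in either library had a median window of 346.5 kb and a median of 3 other coding genes within 500 kb, and the 101 without had medians of 36.3 kb and 17 genes. Distances ran between gene midpoints. In a long gene much of that span is its own body, so this number is not free of gene length. The background for a peak in either library was 11.4% of coding genes, and 22.9% of the members had one. Among members with windows of at least 100 kb, all 9 with 0 to 2 coding genes nearby held a peak in each library, as did 73.7% and 74.3% of 501 other genes in such places, and the density was close to theirs (19.0 and 20.6 against 19.6 and 19.9 per Mb). Of the 23 with 3 to 7 coding genes nearby, 16 did in WT (69.6%) and 14 in KO (60.9%), against 39.7% and 40.5% of 897 other genes. Their density was 18.3 and 20.4 peaks per Mb, against 10.8 and 11.1 for those other genes. Of the 13 with 8 or more, 1 held a peak in each library (7.69%), against 14.7% and 15.3% of 985 other genes. Their density was 0.658 per Mb in each library, against 4.14 and 4.25.

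**Figure D2:**
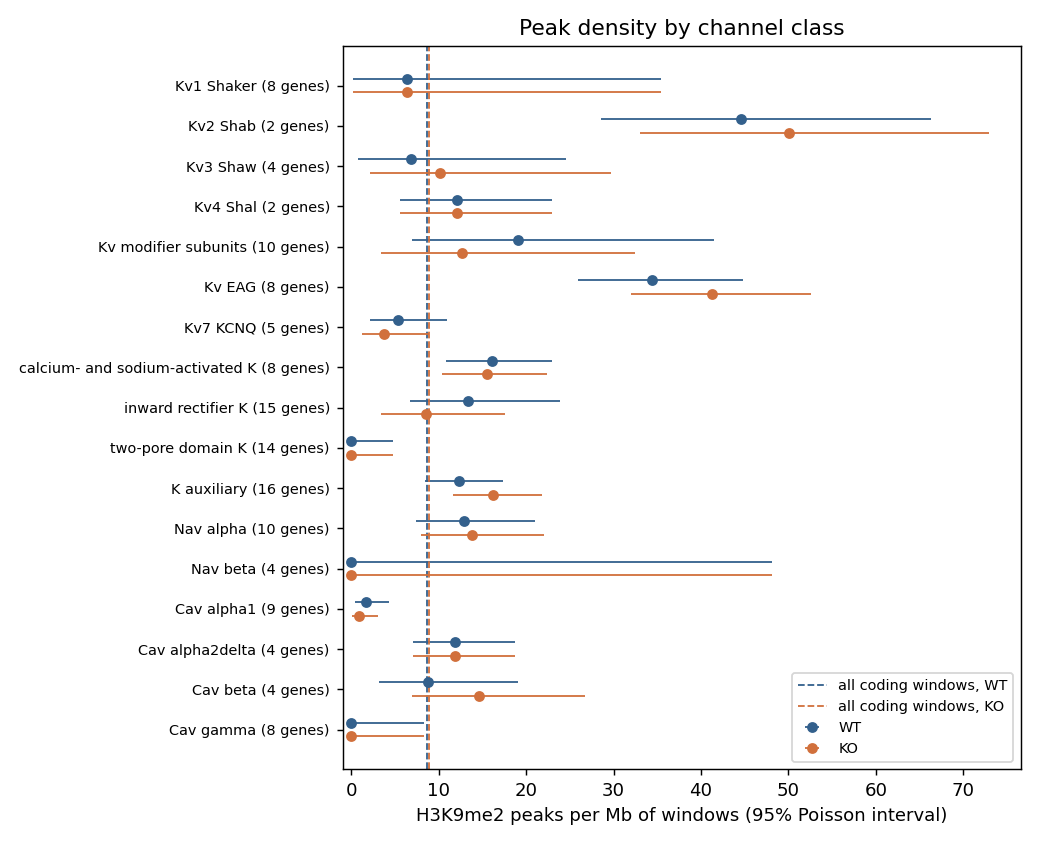
H3K9me2 peaks per Mb of windows (x axis, with exact 95% Poisson intervals) for 17 channel classes (y axis), WT in blue and KO in orange, with dashed lines at the density of all autosomal coding windows (8.71 and 8.90). The Kv2 and EAG classes sit far to the right, and the K2P, Nav beta and Cav gamma classes are at 0.

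The channel classes differed from each other more than the family differed from the genome. In WT and in KO, 10 of the 17 classes lay above the density of all coding windows, but not the same 10. Inward rectifiers were above it in WT only (13.4 per Mb, and 8.51 in KO). Kv3 genes were above it in KO only (10.2 per Mb, and 6.79 in WT). Cav beta genes were barely above it in WT, at 8.74 against 8.71 per Mb. In the 39 genes for voltage-gated potassium pores and their modifier subunits lay 104 WT peaks (20.9 per Mb, 17.1 to 25.4) and 115 KO peaks (23.2 per Mb, 19.1 to 27.8). Their length-class rate would give 65.5 and 66.3, so they held 1.59 and 1.73 times as many. The 14 sodium channel genes held 16 and 17 peaks (12.2 and 12.95 per Mb), 2.30 and 2.32 times the rate. The 25 calcium channel genes held 28 and 30 (5.59 and 5.99 per Mb), 0.405 and 0.424 times the rate. Many peaks come from a few long genes, so the class values are sums over few loci: the 10 members with most peaks held 67.0% of all member peaks in WT and 67.1% in KO.

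**Figure D3:**
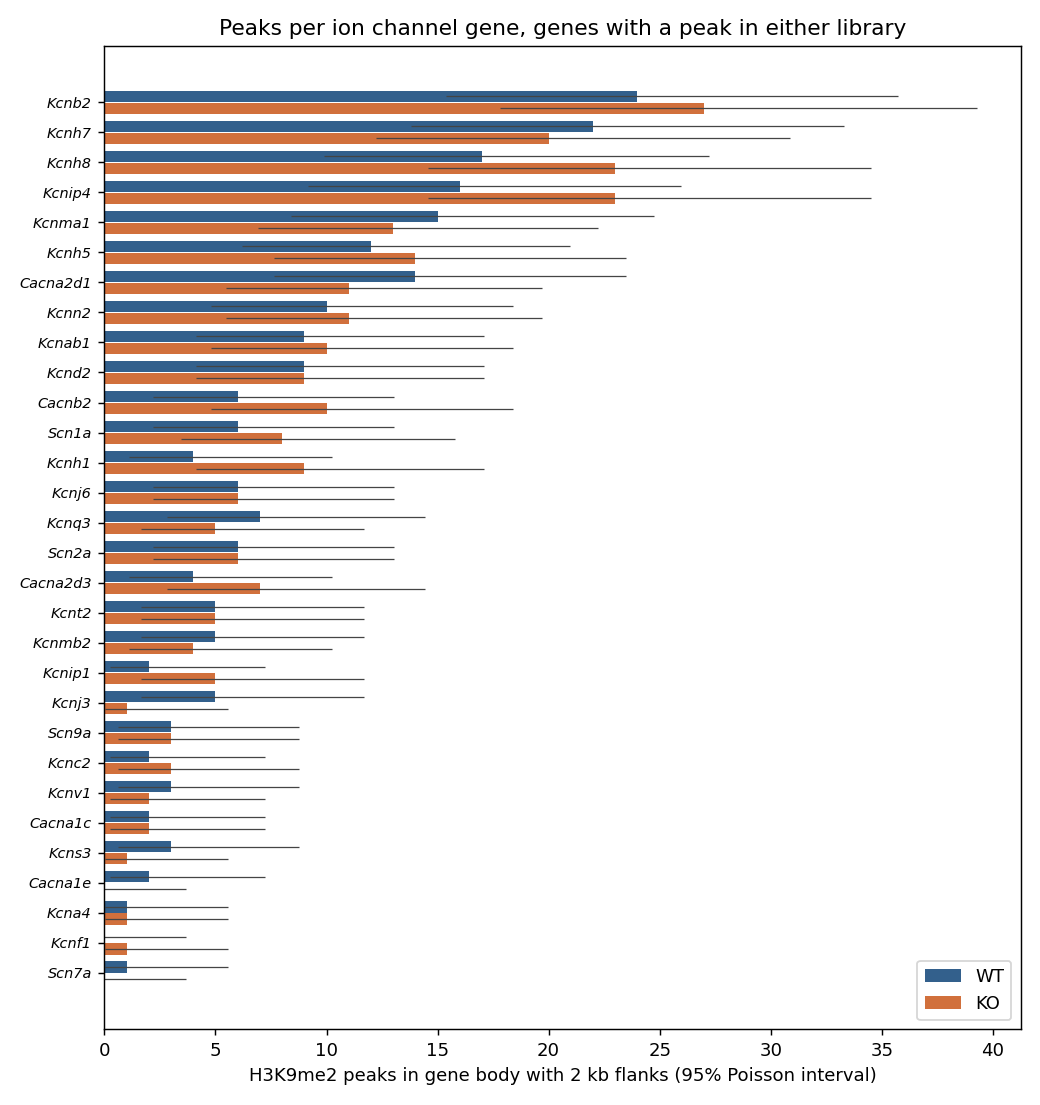
Number of H3K9me2 peaks in the window of each of the 30 channel genes with a peak in either library (bars, blue for WT and orange for KO, thin lines for exact 95% Poisson intervals), ordered by the sum of both libraries. Kcnb2 leads with 24 and 27 peaks, and the intervals of WT and KO overlap for each gene.

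Kcnb2, a delayed rectifier of the Kv2 group that sets repetitive firing, held the most peaks of any member over all called peaks. On chr1:15286925-15723751, it had 24 in WT (54.4 per Mb) and 27 in KO (61.2 per Mb), which covered 3.20% and 3.30% of its window. The 500 kb on each side held 23 and 17 peaks per Mb, so the gene was denser than its neighbourhood. All peaks of the Kv2 class, 44.5 and 50.1 per Mb, came from Kcnb2. Its lead did not hold at a q of 1e-05 or lower in WT, where Kcnb2 held 2 peaks and Kcnh7 held 5. In KO both held 3 at that q, and Kcnh8 held 2 in WT and 1 in KO. With peaks at least 1 kb wide, Kcnb2 held 3 in each library, Kcnh8 2 and 0, and Kcnh7 0 in both.

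The EAG class (Kcnh genes), slow potassium channels with a cyclic-nucleotide-binding-like domain, had the most peaks per Mb of the classes that rested on several genes. Across its 8 genes there were 55 peaks in WT, 34.4 per Mb (25.9 to 44.8), and 66 in KO, 41.3 per Mb (31.9 to 52.5), or 2.52 and 3.02 times the length-class rate. The modifier subunits had higher ratios to that rate, 5.03 and 3.25, but from only 6 WT and 4 KO peaks in 3 genes. Kcnh7 (Erg3) had 22 peaks in WT and 20 in KO, Kcnh8 (Elk) had 17 and 23, Kcnh5 (Eag2) had 12 and 14, and Kcnh1 (Eag1) had 4 and 9. All of them have windows of 284 kb or more. Kcnh2, the Erg1 channel of cardiac repolarization, and Kcnh3, Kcnh4 and Kcnh6 have windows of 22.3 to 36.1 kb and held 0 peaks in both libraries. Density inside the gene exceeded that of the 500 kb on each side at Kcnh7 (44.5 against 11 per Mb in WT, 40.4 against 11 in KO), at Kcnh8 (44.7 against 15 and 60.4 against 12) and at Kcnh5 (42.2 against 20 and 49.3 against 16). This was not particular to Kcnb2 and the EAG genes. Of the 20 members with most peaks, 14 in WT and 19 in KO were denser inside than beside. Taking genes by their peaks inside favours that outcome.

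In the Kv1, Kv3, Kv4 and Kv7 classes a single gene each held peaks, and among the modifier subunits 3 genes did. Kcnd2 (Kv4.2, the A-type current of dendrites) had 9 peaks in each library, while its paralog Kcnd3 had 0. Kcnq3, a subunit of the neuronal M channel, had 7 and 5 peaks. Kcnq5, a further M-channel subunit, had 0 in both libraries although its 568 kb window is the longest without a peak. Kcnq1 (324 kb), a potassium channel of heart and epithelia, also had 0. Among modifier subunits, which form no channel alone, Kcnv1 had 3 and 2 peaks in a window of 23.8 kb. This is the highest density among members with at least 4 peaks over both libraries, at 126 and 83.9 per Mb. Kcns3 had 3 and 1, and Kcnf1, with a window of 8.79 kb, had 0 and 1.

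Potassium channels outside the Kv pores followed the same split between long and short genes. Kcnma1, the BK channel pore gated by voltage and calcium, had 15 and 13 peaks over 717 kb, and Kcnn2 (SK2), a calcium-activated channel of neurons and heart, had 10 and 11. The sodium-activated Kcnt2 had 5 in each library. K2P genes, which carry leak currents, numbered 14 and held 0 peaks in both libraries over 0.768 Mb, where the length-class rate would give 3.72 and 3.89. The exact interval of a count of 0 reaches 3.69, so by length alone the class could hardly be told from the background. With local gene number taken into account as well, the rate would give 4.79 and 5.09. That interval takes peaks as independent, and how unusual 0 is here was not tested. Of 15 inward rectifiers only Kcnj6 (GIRK2), with 6 and 6, and Kcnj3 (GIRK1), with 5 and 1, held peaks. These are the longest genes of the class, at 257 and 190 kb, and the related G protein-gated genes Kcnj5 and Kcnj9, at 33.7 and 12.8 kb, held 0. Among auxiliary subunits Kcnip4, a calcium-sensing partner of Kv4 channels and the longest member at 1140 kb, had 16 and 23. Kcnab1 (a Kv beta subunit) had 9 and 10, Kcnmb2 (a BK beta subunit) had 5 and 4, and Kcnip1 had 2 and 5.

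Sodium channel peaks came from 1 gene cluster. Scn3a, Scn2a, Scn1a, Scn9a and Scn7a lie side by side on chr2:65455118-66786910. Scn1a and Scn2a, sodium channels of the brain, had 6 and 8 and 6 and 6 peaks in WT and KO. Scn9a, the pain-fibre channel Nav1.7, had 3 and 3, Scn7a had 1 and 0, and Scn3a had 0 in both. In this region lay 45 peaks in WT (33.8 per Mb) and 42 in KO (31.5 per Mb), and the sequence between and beside the Scn windows was denser (46.9 and 40.4 per Mb) than the windows themselves (22.4 and 23.8). Elsewhere, Scn4a, Scn8a, Scn10a and Scn11a held 0 peaks in both libraries. Scn8a (Nav1.6), at 180 kb the longest sodium channel gene, lay 2541 kb from the nearest WT peak and 2587 kb from the nearest KO peak.

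Calcium channel pore genes were poor in peaks for their length. The 9 Cacna1 genes held 4 WT peaks (1.70 per Mb, 0.462 to 4.34) and 2 KO peaks (0.848 per Mb, 0.103 to 3.06), where the length-class rate would give 34.5 and 35.4. With local gene number taken into account as well, the rate would give 21.4 and 23.5. Cacna1c, the L-type channel of heart and brain, had 2 peaks in each library over 614 kb, Cacna1e (R-type) had 2 and 0 over 498 kb, and Cacna1d (455 kb) and the P/Q-type gene Cacna1a (306 kb) had 0. The auxiliary alpha2delta genes, which bring the pore to the membrane, differed: Cacna2d1, the gabapentin target, had 14 and 11 peaks, Cacna2d3 had 4 and 7, and Cacna2d2 and Cacna2d4 had 0. Cacna2d1 lies beside one of the densest stretches of any member, with 83 and 81 peaks in the 500 kb on both sides against 31.5 and 24.8 per Mb inside. Of the beta subunits Cacnb2 had 6 and 10 and the other 3 had 0, and none of the 8 Cacng genes had a peak.

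**Figure D4:**
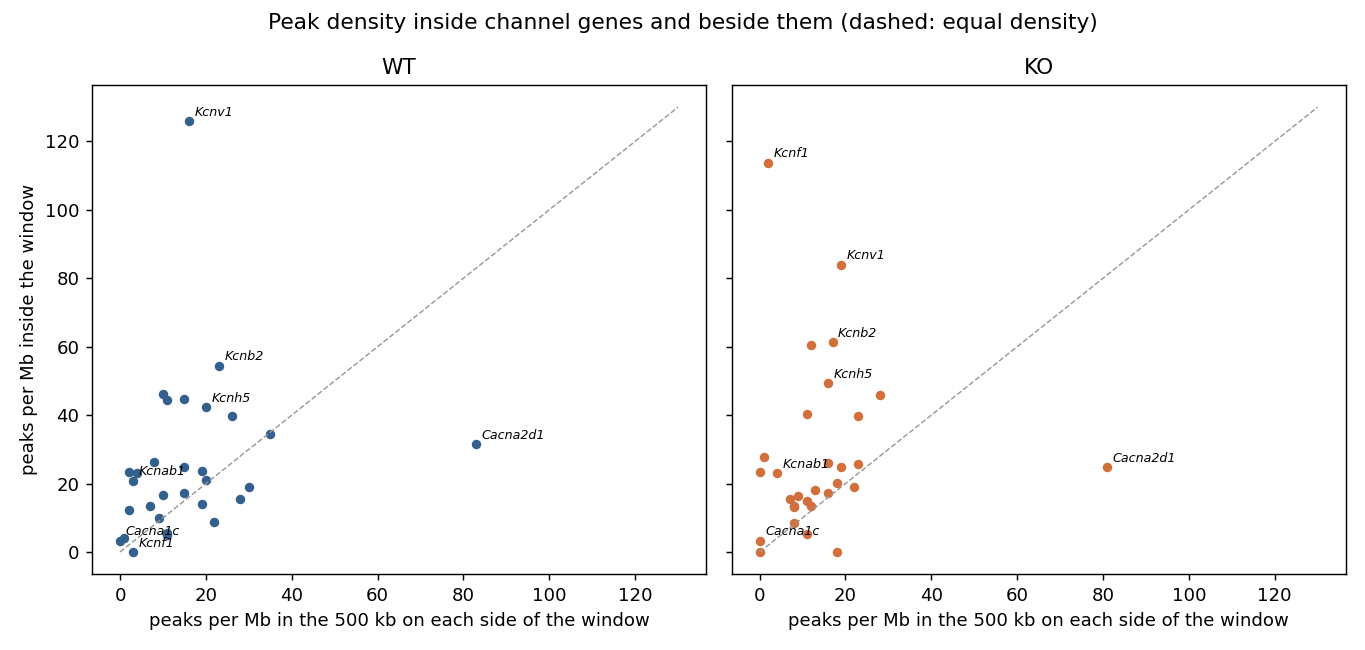
Peaks per Mb inside the window (y axis) against peaks per Mb in the 500 kb on each side (x axis) for the 30 channel genes with a peak, WT on the left and KO on the right, with a dashed line at equal density. Kcnb2 and Kcnh5 lie above the line and Cacna2d1 lies far to the right below it.

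Kcna3 and Kcnn4, the channels that lymphocytes use, carried no H3K9me2 peak in either library. The window of Kcna3, on chr3:107036162-107038129, was 408 kb from the nearest WT peak and 748 kb from the nearest KO peak, and that of Kcnn4, on chr7:24369826-24385212, was 431 and 371 kb away. Both are short, at 5.97 and 19.4 kb, and at the rate of other genes of their length they would together hold 0.144 WT and 0.145 KO peaks. The absence of a peak therefore does not set them apart from other short members, of which Kcnf1 alone held one. The 27 neuronal channel genes of a list drawn from textbook roles held 130 WT peaks (15.2 per Mb, 12.7 to 18.1) in 16 genes and 129 KO peaks (15.1 per Mb, 12.6 to 17.9) in 15. That is 1.01 and 0.976 times their length-class rate. Among them, Kcna1, Kcna2, Kcnc1, Scn8a, Cacna1a and Cacna1b, which neurons use widely, held 0 peaks. Of 4 neuronal genes under 50 kb, Kcna4 alone held a peak. The 15 heart and skeletal muscle channel genes held 16 and 13 peaks, 0.583 and 0.465 times the rate, in Cacna2d1 and Cacna1c only. Cacna2d1, which is on the neuronal list too, as is Kcnd3, supplied 14 and 11 of them, and Cacna1c 2 in each library.

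Other genes of the same pathways gave a wider frame. Of 22 genes for lymphocyte calcium signalling, 21 are autosomal, among them the store-operated calcium entry genes Orai1 and Stim1. They held 0 peaks in both libraries over 2.27 Mb. The length-class rate would give 18.7 and 18.8, and the exact interval of 0 reaches 3.69. Much of that rate came from a few long genes: Itpr2 (5.05 and 4.97), Itpr1 (4.34 and 4.27) and Ppp3ca (3.45 and 3.40). Of 614 genes of 200 to 400 kb outside the channel members, 46.7% held a peak in WT and 47.6% in KO. The interval takes peaks as independent, so it does not show how unusual 0 is here. Of 22 genes for channel partners, 13 had a peak in each library, with 150 and 127 peaks, 1.19 and 0.986 times the rate. They include Fgf12, which modulates sodium channels (19 and 18), and Dpp6, a Kv4 partner (14 and 7). Of 61 other ion channel genes, 17 had a peak in each library, with 147 and 144 peaks, 1.51 and 1.45 times the rate. The background stays the 9.45% and 9.67% of coding genes with a peak.

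Sharing between the genotypes was partial. Of the member peaks, 91 of 221 in WT (41.2%, 34.6 to 48.0%) shared at least 1 bp with a peak of the KO list, as did 91 of 240 in KO (37.9%, 31.8 to 44.4%) with the WT list. Over all coding windows the shares were 45.5% and 44.7%, inside the members' interval for WT and just above it for KO. The difference was not tested. Among peaks at or above the median significance of coding windows, 59.8% of 92 WT and 49.1% of 116 KO member peaks were overlapped, against 57.6% and 55.3% of all such peaks. By gene, 12 of the 24 WT peaks of Kcnb2, 10 of 22 of Kcnh7 and 9 of 17 of Kcnh8 had a KO partner, but 3 of 16 of Kcnip4 and 4 of 15 of Kcnma1. All but 1 of the 6 WT peaks of Kcnj6 had one, while none of the 7 of Kcnq3 did, although Kcnq3 had 5 KO peaks. In all, 27 members held a peak in both libraries, where 7.68% of coding genes did.

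**Figure D5:**
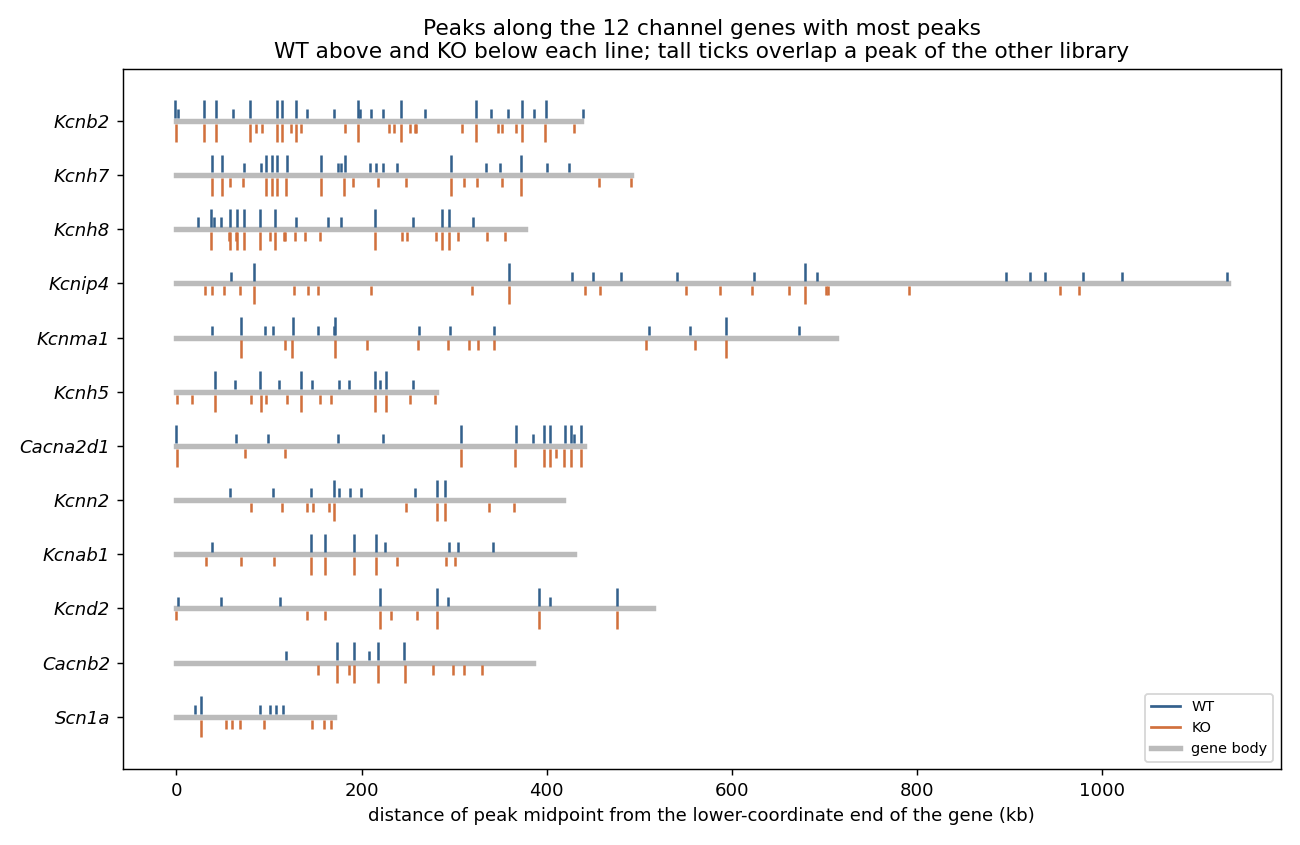
Midpoints of H3K9me2 peaks (ticks) along the 12 channel genes with most peaks, as distance in kb from the lower-coordinate end of the gene (x axis), with WT above and KO below each grey gene body; tall ticks overlap a peak of the other library. Ticks run along the whole bodies, and those of Cacna2d1 gather at its far end.

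The number of peaks in channel genes did not differ between the genotypes beyond counting error. The KO to WT ratio was 1.09 (0.901 to 1.31), against 1.02 (0.993 to 1.05) over all autosomal coding windows, and for 0 of the 30 genes with peaks did the interval of the ratio exclude 1.02. By gene, 13 had more peaks in KO, 10 had more in WT and 7 had equal numbers. The largest differences toward KO were at Kcnip4 (16 to 23), Kcnh8 (17 to 23), Kcnh1 (4 to 9) and Cacnb2 (6 to 10), followed by Kcnb2, Cacna2d3 and Kcnip1 with 3 more each. Those toward WT were at Kcnj3 (5 to 1) and Cacna2d1 (14 to 11), followed by Kcnh7, Kcnma1, Kcnq3, Kcns3 and Cacna1e with 2 fewer in KO. Cacna1e and Scn7a had peaks in WT only and Kcnf1 in KO only. Such one-sided calls were made at 1.77% and 1.98% of all coding genes.

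Most member peaks lay inside gene bodies, which make up most of the windows. The midpoints of 215 of 221 WT and 235 of 240 KO peaks were inside the gene. Over all member peaks, the median distance from the nearest gene end was 95.3 and 103 kb. These positions were not computed over all coding windows. In genes as long as those with most peaks, an even spread would also leave most peaks far from an end. For genes with a strand in the promoter table, split into 3 equal parts from start to end, the parts held 58, 56 and 63 WT peaks and 60, 64 and 71 KO peaks, with those just upstream counted in the first and those just past the end in the last. Peaks were of ordinary size, with a median width of 493 bp in WT and 402 bp in KO against 485 and 374 bp over all coding windows. A single member peak reached a pileup of 100 in each library, inside Kcnh1. It lay on chr1:192453824-192454344 in WT (521 bp, pileup 180, 8.66-fold over the local background by the authors' value) and on chr1:192453927-192454258 in KO (332 bp, 214 and 13.5-fold). All duplicate tags were kept and no control library was used, and the part of duplicates in this peak was not tested.

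A small set of promoters was nevertheless under peaks. Of 97 members with a promoter in the table (250 bases before to 50 after the start), 6 had one overlapped in WT (6.19%, 2.30 to 12.98%) and 9 in KO (9.28%, 4.33 to 16.9%), where 1.37% of all coding genes with a promoter did in WT and 1.36% in KO. Their length-class shares would give 3.38 and 3.22. Among genes with windows of at least 100 kb, 6 and 8 of 38 members were overlapped (15.8%, 6.02 to 31.3%, and 21.1%, 9.55 to 37.3%), against 5.26% and 5.21% of 1824 other genes. Members had a mean of 1.37 promoter entries and other genes 1.22. In both libraries 5 members had a promoter under a peak, and 10 did in at least 1, against 0.766% and 1.96% of coding genes. For Cacna2d1, Kcnc2, Kcnt2 and Scn9a it was the same promoter. Kcnip4 had a different promoter of its several under a peak in each. Scn7a was overlapped in WT only, and Kcna4, Kcnab1, Kcnd2 and Kcnh7 in KO only.

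The peak over the start of Kcnc2 (Kv3.2, a channel of fast-spiking interneurons) was the widest of all member peaks in both libraries. It ran over chr10:112269958-112272259 in WT (2302 bp) and chr10:112270117-112272363 in KO (2247 bp), around the CG-poor sequence printed above. At Scn9a the peaks were 1203 and 1253 bp wide, at Kcnt2 620 and 387 bp, and at the CG-rich start of Cacna2d1 808 and 1570 bp. In contrast, the starts of Kcna3 and Kcnn4 were at least 374 kb from the midpoint of any peak. No peak overlapped any of the 93 promoters of members without a peak, as the choice of those members requires. Their upstream sequence held a median of 8 CG, against 6.5 in the 40 promoters of members with a peak and 10 over all coding genes.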

How the data were processed

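The deposited data were lists of H3K9me2 CUT&Tag peaks, 1 library per genotype, grouped by the labelled genotype. The submitters' processing notes name MACS2, Bowtie2 2.4.2, Trim Galore 0.6.6, deepTools, Picard, HOMER, SAMtools 1.11 and the mm10 build, without roles. Per the file headers, MACS2 2.2.7.1 called broad peaks separately per library at a q of 0.01, keeping all duplicates and using no control. The modelled fragment length d, 292 bp for WT but 189 bp for KO, affects peak width and q. Pileup is deposited as a coverage signal without scaling across libraries. The authors' significance columns hold p-value and q-value as −log10, and their fold enrichment is a ratio to local background. These columns were used only within 1 list.

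Genes and promoters came from RefSeq tables of GRCm38.p6 (333 patch-scaffold entries left out). Windows were overlapped with peaks by at least 1 bp. Length classes were split at 20, 50, 100, 200 and 400 kb. Poisson, Clopper-Pearson and binomial-based ratio intervals were computed with SciPy 1.17.1, and the code was tested on simulated data. Genes were named if they were lymphocyte channels, list genes with a peak, the 15 members with most peaks, the 10 densest with at least 4, the 5 largest differences each way with ties, the 10 longest without a peak, or had a peak in 1 library only. Genes outside this rule were named after their values were seen, to complete a class or to show where a rate came from. The members and lists were chosen with earlier results of these data known. Alternatives changed flank, q, width, pileup, peak number, merging, classes, overlap or d, or left out Kcnb2. Some genes are not reported here by name.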

Additional observations from a re-analysis of the deposited data

How the results depend on the processing

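No paired analysis was possible because each genotype has a single library. Of 176 values recomputed under 12 alternatives, 136 stayed within their interval or within 1.5 times, and the 40 others came from stricter peak sets or from the stricter overlap. At a q of 1e-05 or lower in both lists, 9 members had a peak in WT and 13 in KO, at 0.923 and 0.980 peaks per Mb, the WT ratio to the length-class rate was 0.593, 31.25% of WT and 29.4% of KO member peaks were overlapped, 4 classes lay above the coding density in WT, and the 10 leading genes held 93.75% and 76.5% of peaks. With peaks at least 1 kb wide in both lists, 13 and 6 members had a peak, at 1.21 and 0.577 per Mb, the ratios to the length-class rate were 1.25 and 0.918, 19.0% of WT and 40.0% of KO member peaks were overlapped, 6 classes lay above in KO, the 10 leading genes held 81.0% and 100%, and the KO to WT ratio was 0.476. Against the whole other list, 15 of 16 WT and 10 of 17 KO member peaks at the stricter q were overlapped (93.75% and 58.8%, against 79.6% and 75.2% over coding windows), and 16 of 21 and 9 of 10 at the larger width. Of all member peaks, 7.24% in WT and 7.08% in KO met the stricter q, against 12.6% and 7.76% over coding windows. Width and q depend on d, so these values are not free of it. With reciprocal overlap of 50%, 29.0% and 26.7% were overlapped. Without Kcnb2 the ratios to the length-class rate were 0.946 and 1.003. For EAG genes, a class picked for this after class values were seen, as were the Cacna1 genes, that ratio ran from 2.39 to 3.02 in WT and from 0.924, with peaks at least 1 kb wide, to 3.82 in KO, and for Cacna1 genes it was at most 0.187 in all alternatives. The numbers of peaks per gene, often under 10, limit what single genes can show.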
